A study of Mus musculus with 11 samples.

Results

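The 31 genes described here encode the enzymes, regulators and carriers of cholesterol and fatty acid synthesis, and were taken by gene name from a hippocampal count table of 17118 genes. They comprised 5 enzymes from Hmgcs1 to farnesyl diphosphate, 10 enzymes from squalene to the sterols, 5 regulators of the SREBP transcription factors, 6 enzymes of fatty acid synthesis, and 5 genes of cholesterol transport, storage and turnover. All 31 were found in the table and all 31 passed the filter on low counts, with no value of 0 in any library. Their lowest value was 274 counts, for Ebp.

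AC-T is a chemotherapy used against breast cancer, given as a pair of drug courses. The study gave it to female C57/BL6 mice (genotype label C57/BL6J) from 12 weeks of age as 8 weekly intraperitoneal injections. The first 4 held doxorubicin (2 mg/kg), an anthracycline, with cyclophosphamide (50 mg/kg), an alkylating agent, and the last 4 held paclitaxel (5 mg/kg), which stabilises microtubules. Control mice received 8 injections of 0.9% saline on the same schedule. No tumour is named in the labels, and the sample names carry a 1-month label whose starting point is not defined. Bulk RNA from hippocampal punches of 0.2 mm was sequenced in 11 libraries, each from 1 mouse. Mice 501, 502, 503, 600 and 602 had received AC-T (n = 5), and mice 201, 202, 203, 300, 301 and 302 saline (n = 6). The series states 6 samples per group, and 5 AC-T libraries were analysed here.

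Cholesterol in the brain is made in place, because plasma lipoproteins do not cross the blood-brain barrier, and myelin holds much of it. When sterol is scarce, Scap escorts the precursors of the SREBP proteins to the Golgi, where they are cleaved into transcription factors. The Srebf2 product acts mainly on the sterol enzymes and the Srebf1 product mainly on fatty acid genes. The Insig proteins hold Scap in the endoplasmic reticulum when sterol is plentiful, and Insig1 is itself a target of the SREBP proteins. Astrocytes release cholesterol on Apoe particles, neurons take them up through receptors such as Lrp1, and neurons clear surplus cholesterol with Cyp46a1.

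The libraries held 23.4 to 32.1 M counts each (M, mega). The 31 genes together made up 0.532% to 0.585% of the counts in AC-T libraries and 0.591% to 0.658% in saline libraries. Among the 31, Scd2 and Apoe had the most counts, and the difference in share was not tested. The share of mitochondrial genes was 10.1 ± 1.57% in AC-T libraries and 11.5 ± 0.926% in saline libraries (SD, n = 5 and 6; exact permutation p = 0.115). Xist, which is transcribed in female cells, had no counts in saline 300 but 13057 to 22963 in each of the remaining libraries, and every mouse is labelled female. Markers of hippocampal neurons were present, and so were markers of the neighbouring thalamus. Among 14 markers of the thalamus 13 were lower in AC-T libraries and 0 higher, with summed levels of 746 to 1065 CPM in AC-T libraries and 1396 to 2095 CPM in saline libraries (CPM, read count normalised to a common library size). Within that list Gbx2 was at 0 in AC-T 600. Of 8 CA1 markers 1 was higher and 0 lower, with sums of 510 to 665 CPM and 134 to 420 CPM. Mouse numbers begin with 5 or 6 in the AC-T group and with 2 or 3 in the saline group. The names of the deposited count columns end in the same digit. The meaning of these series is not given, and none spans both treatments.

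Across the 31 genes, 3 were lower after AC-T, and 0 were higher. The lower genes were Insig1, which restrains SREBP processing, and the lipid enzymes Scd1 and Elovl5. They make up 9.68% of the 31 genes, against 8.47% of all 15353 genes tested that changed in either direction (4.89% higher and 3.58% lower). The test was edgeR's quasi-likelihood F test with Benjamini-Hochberg adjustment over all genes and a threshold of 0.05. Before adjustment 10 of the 31 genes (32.3%) had a p under 0.05, against 24.9% of all genes. The median log2 fold change, AC-T minus saline, was −0.06 over the 31 genes and −0.003 over all genes, and the median absolute value was 0.09 and 0.11. Individual values ran from −0.36 for Scd1 to 0.23 for Fdft1. For the 28 genes that did not pass, the 95% intervals lay between −0.46 (Srebf1) and 0.41 (Fdft1). The count rested on single libraries. It was 0 when AC-T 600 or AC-T 602 was left out (each with 10 genes at an unadjusted p under 0.05), 1 when AC-T 501, AC-T 502, saline 202 or saline 203 was left out, 2 when saline 201, 300 or 301 was left out, 3 without saline 302 (Cyp46a1 in place of Elovl5) and 4 without AC-T 503. Among the 31 the count was also 0 when mouse series entered as a random effect in limma-voom, where 293 of all genes passed. Adjusted p was then 0.0914 for Insig1, 0.0900 for Scd1 and 0.153 for Elovl5, with 9 genes at an unadjusted p under 0.05. In edgeR it was 0 without series 2 or 6 (9 and 11 genes at an unadjusted p under 0.05), where 549 and 409 of all genes passed. Without series 3 it was 1 (Cyp46a1) and without series 5 it was 5, where 1206 and 317 of all genes passed. It was 7 with DESeq2, of which 1 (Fdps) was higher, where 2559 of all genes passed.

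**Figure D1:**
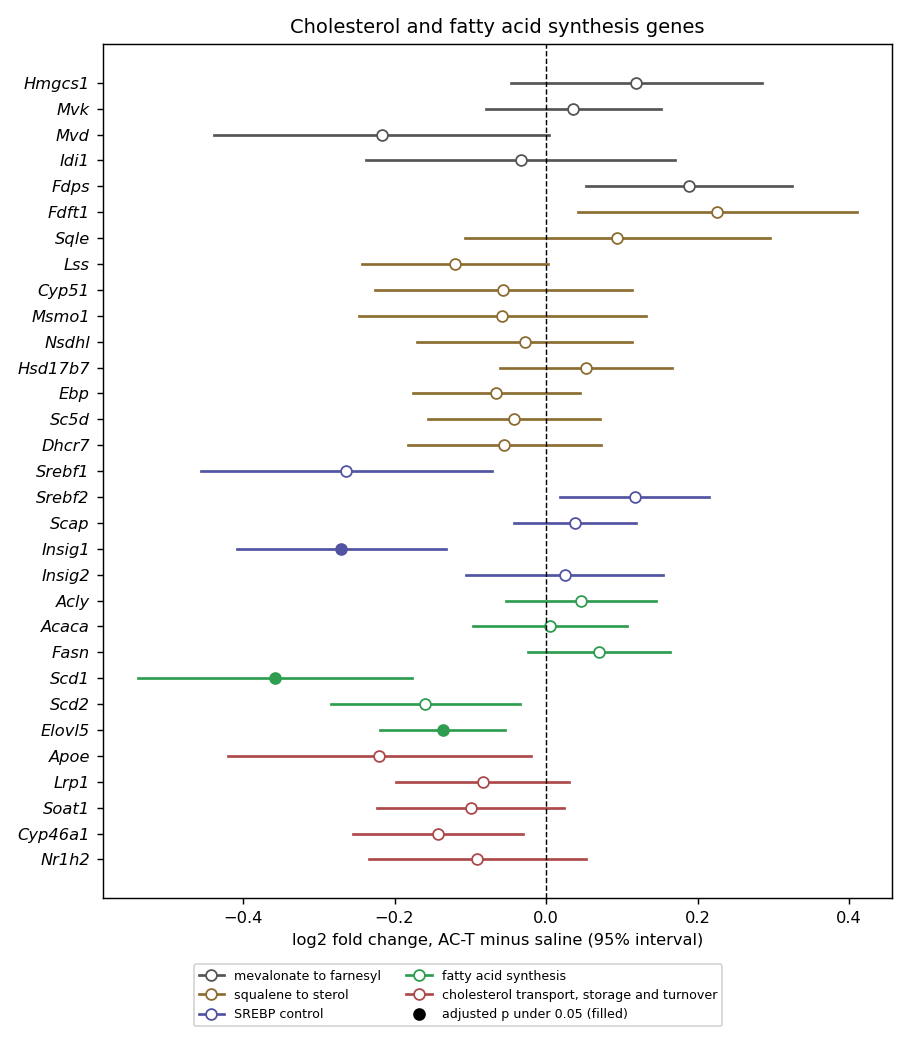
Log2 fold change, AC-T minus saline, of the 31 genes in order of pathway step, with 95% intervals from edgeR (horizontal axis, log2 units; 5 AC-T and 6 saline libraries). Filled points are the 3 genes with an adjusted p under 0.05 (Insig1, Scd1 and Elovl5), all below 0, and the points of all 5 transport, storage and turnover genes also lie below 0.

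Among the regulators, Insig1 fell and the other 4 did not pass the test. Insig1, the endoplasmic reticulum anchor of Scap, stood at 67.0, 76.8, 85.1, 71.9 and 68.0 CPM in AC-T 501, 502, 503, 600 and 602, against a lowest, median and highest value of 84.5, 88.0 and 94.9 CPM in the saline libraries. AC-T 503 alone lay within the saline range. The mean was 73.8 ± 7.40 CPM after AC-T and 88.9 ± 4.30 CPM after saline (SD, n = 5 and 6), a log2 fold change of −0.27 ± 0.06 (SE; edgeR adjusted p = 0.0256). Leaving out AC-T 501 (adjusted p = 0.0518), 600 (0.0574) or 602 (0.0661) ended the call, as did leaving out saline 202 (0.0526) or 203 (0.0526).

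Srebf1, which encodes the transcription factor of the fatty acid genes, stood at 70.0, 60.6, 72.2, 79.5 and 68.2 CPM in AC-T 501, 502, 503, 600 and 602, against a lowest, median and highest value of 71.9, 83.3 and 101.7 CPM in saline libraries. The groups overlapped, with the highest saline value in saline 300, and the log2 fold change was −0.26 ± 0.09 (SE; edgeR adjusted p = 0.0862). Srebf2, the gene of the sterol-specific factor, averaged 191 ± 5.80 CPM after AC-T and 176 ± 9.91 CPM after saline, with a log2 fold change of 0.12 ± 0.04 (adjusted p = 0.130). The values of Srebf1 and Srebf2 thus lay on opposite sides of 0, neither past the threshold in edgeR, and Srebf1 passed with DESeq2 (adjusted p = 0.0154). Scap, the escort protein, and Insig2, the other anchor, had log2 fold changes of 0.04 and 0.02 (adjusted p = 0.571 and 0.846).

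The promoter windows of Insig1, Elovl5 and Hmgcs1 are shown because Insig1 and Elovl5 fell and Hmgcs1 stands at the head of the sterol pathway. Each runs from 250 bases before to 50 bases after the gene's start, from RefSeq on GRCm38.p6, an older build than the GRCm39 named for these data. The windows lie at chr5:28071162-28071461 for Insig1, chr9:77917115-77917414 for Elovl5 and chr13:119690101-119690400 for Hmgcs1, all on the plus strand. Capitals mark matches, on either strand, to the sterol regulatory element core TCACNCCAC, the NF-Y box CCAAT, which appears as its reverse complement where it lies on the minus strand, and the E-box CACGTG. No capital runs overlap.
Insig1: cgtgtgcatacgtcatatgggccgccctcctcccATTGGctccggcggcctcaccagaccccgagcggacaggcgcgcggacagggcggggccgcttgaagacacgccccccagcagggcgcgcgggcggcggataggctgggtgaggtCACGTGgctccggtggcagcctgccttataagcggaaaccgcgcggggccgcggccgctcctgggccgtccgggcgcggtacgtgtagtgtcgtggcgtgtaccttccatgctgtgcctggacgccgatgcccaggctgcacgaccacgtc
Elovl5: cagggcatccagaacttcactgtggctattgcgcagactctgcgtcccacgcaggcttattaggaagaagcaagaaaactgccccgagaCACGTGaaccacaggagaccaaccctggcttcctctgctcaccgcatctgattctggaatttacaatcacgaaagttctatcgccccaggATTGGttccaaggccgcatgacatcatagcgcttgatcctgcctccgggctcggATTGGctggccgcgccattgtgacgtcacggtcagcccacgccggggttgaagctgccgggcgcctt
Hmgcs1: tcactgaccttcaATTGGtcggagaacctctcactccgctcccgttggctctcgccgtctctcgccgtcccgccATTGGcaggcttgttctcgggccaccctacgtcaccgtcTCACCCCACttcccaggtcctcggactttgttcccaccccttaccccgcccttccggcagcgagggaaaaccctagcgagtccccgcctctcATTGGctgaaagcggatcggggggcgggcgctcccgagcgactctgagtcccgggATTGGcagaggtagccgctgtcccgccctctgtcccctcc
RefSeq windows were found for 26 of the 31 genes, 35 windows in all. No window was at hand for Scd1, Scd2, Fdps, Fdft1 and Sqle, so Scd1 is not shown although it fell. CCAAT occurred in 22 of the 35 (62.9%), against 37.4% of 32851 windows of the same length over all genes. CACGTG occurred in 7 (20%), against 7.15%, and TCACNCCAC in 1 (2.86%), that of Hmgcs1, against 1.24%. A match describes letters only and is not a measured binding site.

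None of the 5 enzymes from Hmgcs1 to farnesyl diphosphate passed in edgeR with all libraries, and Fdps alone had an unadjusted p under 0.05. Fdps did pass with DESeq2. Hmgcs1, which makes the substrate of the mevalonate pathway's rate-limiting step, stood at 218, 254, 253, 194 and 194 CPM in AC-T 501, 502, 503, 600 and 602, against a lowest, median and highest value of 194, 205 and 214 CPM in saline libraries. Of the AC-T libraries, 501, 502 and 503 lay above every saline library, and the other two at the bottom of the saline range. The log2 fold change was 0.12 ± 0.08 (SE; edgeR adjusted p = 0.369). Idi1, the isopentenyl diphosphate isomerase, was also highest in AC-T 502 and 503, at 54.9, 61.7, 68.0, 47.2 and 45.3 CPM in the same library order, around saline values of 55.1 to 58.5 CPM (log2 fold change −0.03, adjusted p = 0.870). Fdps, which joins isoprenoid units into farnesyl diphosphate, averaged 21.8 ± 2.00 CPM after AC-T and 19.1 ± 1.06 CPM after saline (log2 fold change 0.19 ± 0.06, adjusted p = 0.0844). Mvk, the mevalonate kinase, had a log2 fold change of 0.04 (adjusted p = 0.733), and Mvd, the decarboxylase, −0.22 (adjusted p = 0.209). Of the omissions of 1 library, Mvd passed only in that of AC-T 503 (edgeR adjusted p = 0.0377).

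None of the 10 enzymes from squalene to the sterols passed in edgeR or DESeq2, and 1 (Fdft1) had an unadjusted p under 0.05, with 3 fold changes above 0 and 7 below. Fdft1, the squalene synthase that commits farnesyl diphosphate to sterols, stood at 64.8, 79.7, 81.5, 65.6 and 66.6 CPM in AC-T 501, 502, 503, 600 and 602, against a lowest, median and highest value of 52.8, 61.9 and 67.7 CPM in saline libraries. AC-T 502 and 503 lay above every saline library and the other 3 within the saline range (log2 fold change 0.23 ± 0.08, SE; edgeR adjusted p = 0.118). Sqle, the squalene epoxidase, stood at 44.4, 63.0, 62.3, 46.5 and 47.9 CPM, against 47.2 to 51.5 CPM in saline libraries (log2 fold change 0.09, adjusted p = 0.582). Msmo1, the methyl sterol oxidase, stood at 88.8, 104.6, 109.7, 83.7 and 74.6 CPM, against 92.4 to 100.4 CPM in saline libraries (log2 fold change −0.06, adjusted p = 0.738). In both genes AC-T 502 and 503 were above the saline range and the other 3 AC-T libraries below it or at its lower edge. Lss, the lanosterol synthase, averaged 31.3 ± 1.64 CPM after AC-T and 34.0 ± 2.48 CPM after saline (log2 fold change −0.12, adjusted p = 0.208). The log2 fold changes of the later enzymes Cyp51, Nsdhl, Hsd17b7, Ebp, Sc5d and Dhcr7 ran from −0.07 (Ebp) to 0.05 (Hsd17b7), with adjusted p values from 0.471 (Ebp) to 0.841 (Nsdhl).

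The 15 enzymes of these 2 steps divided the AC-T libraries. In AC-T 502 and 503 all 15 were above their AC-T mean, whereas 3, 1 and 0 were above it in AC-T 501, 600 and 602. In the saline libraries the number above the saline mean was 5 to 11 of 15, and over all genes tested between 47.4% and 54.7% lay above their group's mean in each library. Set against the saline mean, the average of the 15 was 0.13 and 0.16 log2 units higher in AC-T 502 and 503. It was −0.06, −0.10 and −0.14 in AC-T 501, 600 and 602, and −0.03 to 0.02 in the saline libraries. The SD of log2 CPM was larger after AC-T than after saline for 12 of the 15 (80%), against 48.1% of all genes, and at least 2 times as large for 7 (46.7%), against 10.5%. It was 6.80 times as large for Idi1, 5.94 for Msmo1, 5.86 for Sqle and 4.17 for Hmgcs1. The 9 other genes of sterol synthesis and its control that were tested showed a like order. They include the sterol carrier Stard4 and the SREBP-cleaving proteases Mbtps1 and Mbtps2. Of the 9, 7 were above their mean in AC-T 502 and 503, 3 in AC-T 501, and 2 in AC-T 600 and 602. This division was noticed in these libraries and is given as a description with no test.

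**Figure D2:**
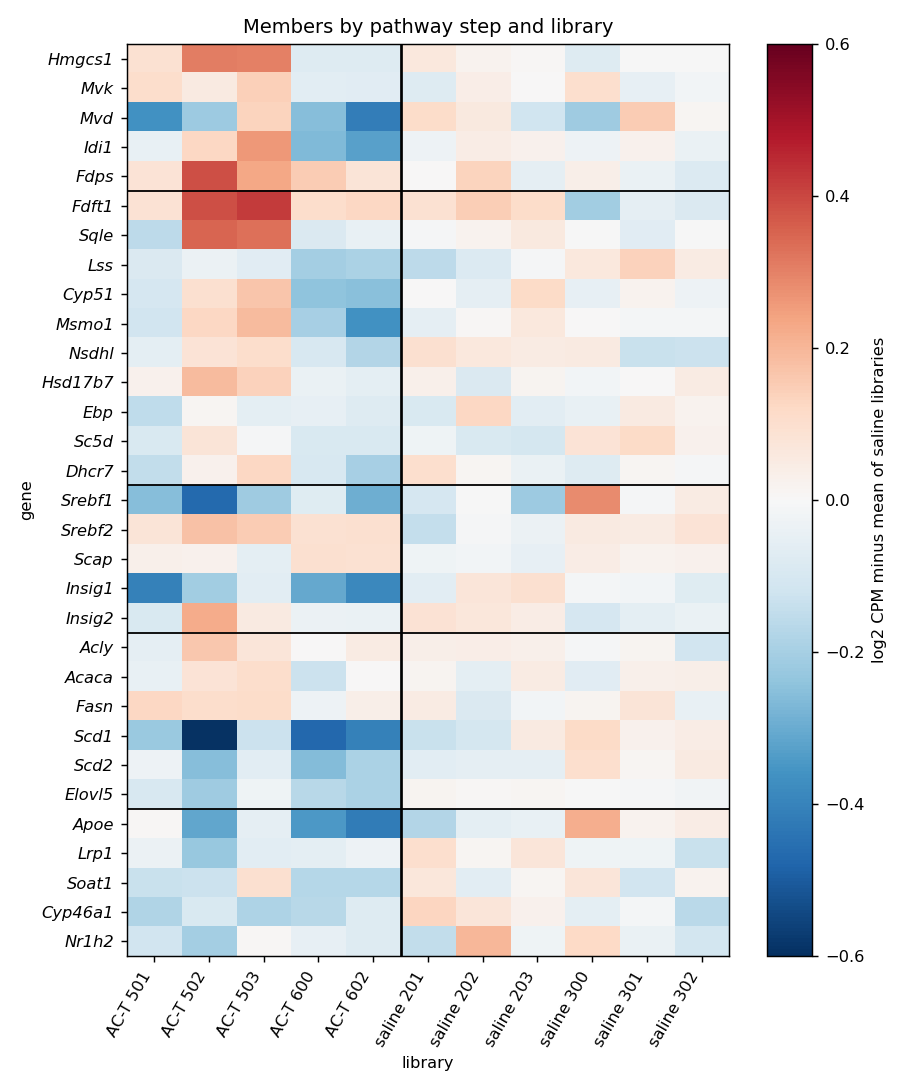
Log2 CPM of each of the 31 genes (rows, by pathway step) minus its mean over the saline libraries, for 5 AC-T libraries (left) and 6 saline libraries (right); red is higher and blue lower. The upper block of 15 sterol enzymes is mostly red in AC-T 502 and 503 and mostly blue in AC-T 600 and 602, while Insig1 and Scd1 are blue in all 5 AC-T libraries.

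**Figure D3:**
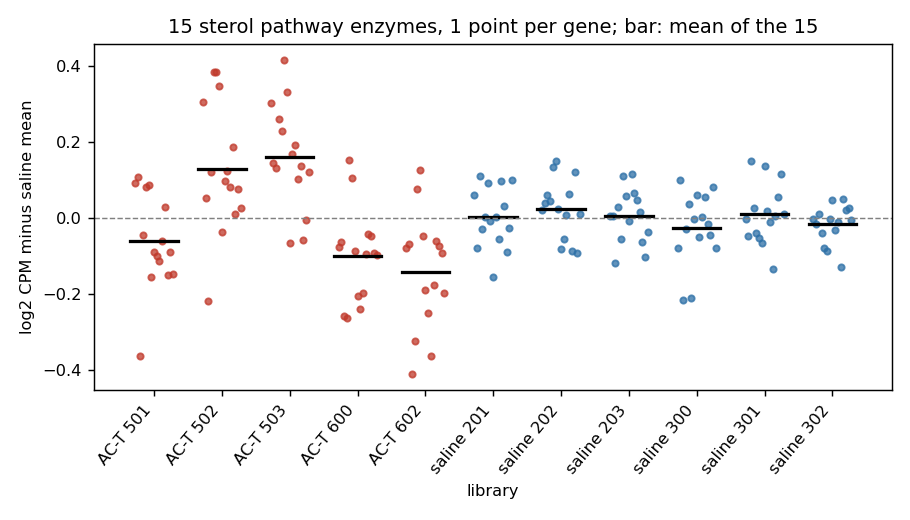
Log2 CPM minus the saline mean (vertical axis, log2 units) of the 15 sterol pathway enzymes, 1 point per gene, in each library; bars are the mean of the 15. The bars stand at 0.13 and 0.16 in AC-T 502 and 503, below 0 in the other 3 AC-T libraries, and between −0.03 and 0.02 in the saline libraries.

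Other measures varied among the same AC-T libraries. AC-T 502 had the lowest sum of 14 oligodendrocyte markers (9093 CPM, against 13262 to 14579 CPM in the other 4) and AC-T 503 the lowest sum of 5 dentate gyrus markers (130 CPM, against 210 to 264 CPM). Mitochondrial genes took 9.59% and 12.2% of the counts in AC-T 502 and 503, and 11.4%, 8.81% and 8.69% in AC-T 501, 600 and 602. Sums of 8 neuronal markers were 11275 and 11017 CPM in AC-T 502 and 503, against 9915 to 10919 CPM in the other 3. Astrocyte marker sums were 5097 and 6379 CPM in AC-T 502 and 503, and 6282, 4610 and 4884 CPM in AC-T 501, 600 and 602. Choroid plexus marker sums were 1322 and 1360 CPM in AC-T 502 and 503, and 78.0, 5409 and 2236 CPM in AC-T 501, 600 and 602. The part of these measures in the division was not tested.

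By mouse series, 14 of the 15 enzymes had a log2 difference below 0 between AC-T series 6 and AC-T series 5 (series 6 minus series 5, median −0.18). None passed edgeR, where 0.117% of all genes did, and 8 of the 15 had an unadjusted p under 0.05, against 13.5% of all genes. The 15 varied together in the same libraries in which the division was noticed. That count is therefore descriptive and no independent support for the division. The smallest adjusted p was that of Idi1, which averaged 46.2 CPM in series 6 and 61.5 CPM in series 5 (log2 difference −0.41 ± 0.08, SE; adjusted p = 0.122). Hmgcs1 averaged 194 CPM in series 6 and 242 CPM in series 5 (−0.32 ± 0.07, adjusted p = 0.148). AC-T 501 belongs to series 5 but had 12 of the 15 below their AC-T mean.

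Of the 6 fatty acid genes, Scd1 and Elovl5 fell and the other 4 did not pass in edgeR with TMM scaling. Scd1, a stearoyl-CoA desaturase that introduces a double bond into saturated fatty acids, stood at 296, 229, 317, 249 and 261 CPM in AC-T 501, 502, 503, 600 and 602, against a lowest, median and highest value of 315, 354 and 374 CPM in saline libraries. AC-T 503 alone lay within the saline range, just above its lowest value. The mean was 270 ± 35.3 CPM after AC-T and 346 ± 22.99 CPM after saline (SD, n = 5 and 6), a log2 fold change of −0.36 ± 0.08 (SE; edgeR adjusted p = 0.0240). The call ended without AC-T 502 (adjusted p = 0.0562), AC-T 600 (0.0576) or AC-T 602 (0.0625).

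Elovl5, an elongase of polyunsaturated fatty acids, was the only one of the 31 genes whose groups did not overlap (3.23%, against 7.52% of all genes, and 3.1% with AC-T the lower group). It stood at 80.4, 73.9, 84.3, 76.5 and 75.3 CPM in AC-T 501, 502, 503, 600 and 602, against a lowest, median and highest value of 84.6, 85.9 and 86.7 CPM in saline libraries. The difference was small and the saline spread narrow, with 78.1 ± 4.22 CPM after AC-T and 85.8 ± 0.791 CPM after saline (log2 fold change −0.14 ± 0.04, SE; edgeR adjusted p = 0.0474). Without any 1 library the call held only when AC-T 503 was left out (adjusted p = 0.0206), and the adjusted p was 0.0593 to 0.109 when any of the other 10 was left out (lowest without AC-T 501, highest without AC-T 502).

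Scd2, the main desaturase of brain, stood at 1912, 1641, 1869, 1631 and 1712 CPM in AC-T 501, 502, 503, 600 and 602, against a lowest, median and highest value of 1871, 1930 and 2100.4 CPM in saline libraries. AC-T 501 lay within the saline range and the other 4 below it (log2 fold change −0.16 ± 0.06, SE; edgeR adjusted p = 0.106). Scd2 passed with DESeq2 (adjusted p = 0.0304) and in edgeR with scaling to library totals (0.0470). Scd1 and Scd2 are closely related in sequence, and their deposited counts carried a fraction in 11 and 10 of the 11 libraries, as reads divided between similar sequences do. The same held for Idi1, Fdps and Fdft1 (11, 11 and 10 libraries) and, in 3 libraries, for Insig1. Their levels are less certain for it. Per kilobase of the longest annotated transcript, Scd2 had 321 CPM after AC-T and 359 CPM after saline, and Scd1 had 56.0 and 71.7 CPM.

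The enzymes that make palmitate moved less. Fasn, the fatty acid synthase, averaged 221 ± 9.85 CPM after AC-T and 210 ± 8.77 CPM after saline (log2 fold change 0.07 ± 0.04, SE; edgeR adjusted p = 0.353). The log2 fold changes of Acly, which splits citrate into acetyl-CoA, and Acaca, which makes malonyl-CoA, were 0.05 and 0.005 (adjusted p = 0.582 and 0.963), with 95% intervals of −0.05 to 0.15 and −0.10 to 0.11.

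**Figure D4:**
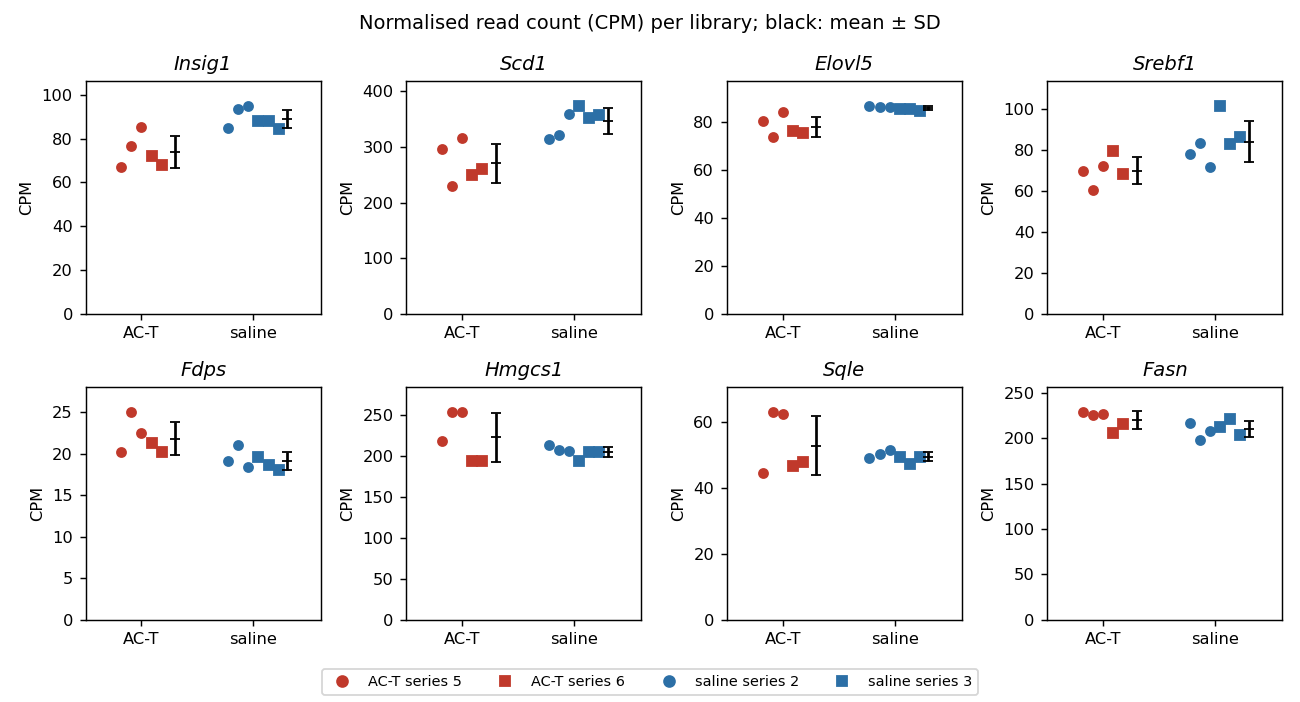
Normalised read count (CPM, linear axis from 0) of 8 genes in each library, AC-T left of saline, with circles and squares for the mouse series and black bars for the mean ± SD (n = 5 and 6). Elovl5 shows no overlap between the groups, Insig1 and Scd1 overlap by AC-T 503 alone, and in Hmgcs1 and Sqle AC-T 502 and 503 stand above all saline libraries.

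All 5 genes of cholesterol transport, storage and turnover had fold changes below 0 and none passed in edgeR, where Apoe and Cyp46a1 had an unadjusted p under 0.05 and Cyp46a1 passed with DESeq2. Apoe, the lipoprotein of astrocytes and the most abundant of the 31 genes per kilobase of transcript (981 CPM after AC-T and 1142 CPM after saline), stood at 1608, 1292, 1546, 1260.2 and 1197 CPM in AC-T 501, 502, 503, 600 and 602. The saline libraries had a lowest, median and highest value of 1418, 1590 and 1863 CPM. AC-T 502, 600 and 602 lay below the saline range and the other 2 within it (log2 fold change −0.22 ± 0.09, SE; edgeR adjusted p = 0.160). Cyp46a1, the neuronal enzyme that hydroxylates cholesterol for export, averaged 107 ± 3.86 CPM after AC-T and 118 ± 8.28 CPM after saline (log2 fold change −0.14 ± 0.05, adjusted p = 0.109). Soat1, which esterifies cholesterol for storage, Nr1h2, a nuclear receptor for oxysterols, and Lrp1, the lipoprotein receptor, had log2 fold changes of −0.10, −0.09 and −0.08 (adjusted p = 0.309, 0.436 and 0.360).

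Of 58 other genes of these pathways 55 were tested, and 3 were lower and 0 higher (5.45%, against 3.58% of all genes lower and 8.47% changed in either direction). Lcat, which esterifies cholesterol on lipoproteins, fell to 30.8 ± 3.59 CPM after AC-T, against 39.4 ± 2.96 CPM after saline, without overlap (log2 fold change −0.36 ± 0.08, SE; edgeR adjusted p = 0.0197). It passed without any 1 library (highest adjusted p 0.0472, without AC-T 600), but not without any of the 4 mouse series (0.0603 to 0.0905), nor with the astrocyte (0.0936) or thalamus score (0.866) as a covariate. Fads6, a member of the fatty acid desaturase family, fell by 0.35 ± 0.09 (adjusted p = 0.0301), and Tm7sf2, a sterol reductase, by 0.27 ± 0.07 (adjusted p = 0.0387). Fads6 lost its call in 7 of 11 omissions of 1 library (highest adjusted p 0.0713, without AC-T 502) and Tm7sf2 in 8 of 11 (0.0896, without AC-T 602). With mouse series as a random effect in limma-voom none of the 3 passed (adjusted p = 0.0862 for Lcat, 0.0932 for Fads6 and 0.144 for Tm7sf2). Of the 4 most abundant, Clu, an apolipoprotein, stood at 892 ± 87.7 CPM after AC-T and 877 ± 132 CPM after saline (adjusted p = 0.922). Fads1, a desaturase of polyunsaturated fatty acids, stood at 249 ± 24.0 and 288 ± 24.9 CPM in the same order (adjusted p = 0.111). Tecr, an enoyl-CoA reductase of chain elongation, and Osbpl1a, an oxysterol-binding protein, had log2 fold changes of −0.02 and 0.16 (adjusted p = 0.919 and 0.271).

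Which genes passed depended on the saline series. Against saline series 2, 1 of the 31 was higher and 3 lower, where 5.83% of all genes were higher and 5.59% lower (11.4% in all). Against saline series 3, 1 was higher and 5 lower, where 4.31% of all genes were higher and 2.94% lower (7.25% in all). Both comparisons use the same AC-T libraries. Against series 2 the log2 fold changes were 0.18 for Srebf2 (edgeR adjusted p = 0.0302), −0.32 for Insig1 (0.0227), −0.15 for Elovl5 (0.0496) and −0.21 for Cyp46a1 (0.0219). Against series 3 the same genes had 0.05 (0.482), −0.25 (0.0659), −0.13 (0.0892) and −0.06 (0.467). Against series 3 the genes past the threshold were Fdft1 at 0.33 (0.0356), Scd1 at −0.43 (0.0324), Scd2 at −0.23 (0.0418), Apoe at −0.34 (0.0363), Srebf1 at −0.36 (0.0448) and Lss at −0.21 (0.0259). Against series 2 those 6 had 0.09 (0.469), −0.31 (0.0641), −0.11 (0.221), −0.16 (0.241), −0.14 (0.369) and −0.05 (0.507). Saline 300, the library without Xist counts, belongs to series 3. It had the lowest saline value of Fdft1 and the highest of Scd1, Scd2, Apoe and Srebf1, but not of Lss. The part of saline 300 in the comparison with series 3 was not tested. Between saline series 3 and 2 themselves none of the 31 passed in edgeR, where 1.03% of all genes did, and 5 had an unadjusted p under 0.05 (20.1% of all genes).

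Levels of cell type and region markers varied between the groups too. Of 10 marker lists compared, the thalamus, CA1, neuron and endothelial lists had exact permutation p values of 0.00216, 0.00649, 0.00433 and 0.00866 (each 0.0216 after adjustment over the 10 lists). The lists were chosen with earlier results of these data known, so these p values are descriptive and give no independent support. Neuron scores were 9.58 ± 0.0726 in AC-T libraries and 9.36 ± 0.0981 in saline libraries, and endothelial scores 5.44 ± 0.138 and 5.62 ± 0.0439. Their part in the results for the 31 genes was not tested. Astrocyte scores, the mean log2 CPM of 12 markers, stood at 7.89 ± 0.215 in AC-T libraries and 8.07 ± 0.107 in saline libraries (exact permutation p = 0.108), and 2 of the 12 markers, Aqp4 and Slc4a4, were lower (chosen after their values were seen). The most abundant of the 12 did not pass. Slc1a2, Aldoc and Slc1a3 had log2 fold changes of 0.13, −0.14 and 0.07 (edgeR adjusted p = 0.518, 0.424 and 0.756). The summed astrocyte level was 4610 to 6379 CPM in AC-T libraries and 4860.0 to 6004 CPM in saline libraries, with no marker at 0. With the astrocyte score as a covariate 0 of the 31 genes passed in edgeR, where 2.51% of all genes did, and 9 of the 31 had an unadjusted p under 0.05. The log2 fold change was then −0.22 ± 0.05 for Scd1 (SE; edgeR adjusted p = 0.0517), −0.07 ± 0.06 for Apoe, −0.08 ± 0.04 for Scd2, −0.10 ± 0.04 for Elovl5 and −0.23 ± 0.07 for Insig1 (adjusted p = 0.541, 0.344, 0.186 and 0.118 for these 4). In bulk tissue fewer cells of a type and less RNA per cell cannot be told apart.

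Oligodendrocyte scores differed little, at 8.12 ± 0.253 in AC-T libraries and 8.14 ± 0.180 in saline libraries (exact permutation p = 0.918), and 0 of 14 markers passed. Their sums were 9093 to 14579 CPM and 11520 to 16255 CPM. With this score as a covariate 5 of the 31 genes passed, where 10% of all genes did. These were the 3 already named, Srebf1 lower (−0.25 ± 0.06, edgeR adjusted p = 0.0306) and Fdft1 higher (0.22 ± 0.06, adjusted p = 0.0453). Thalamic scores did not overlap between the groups, at 5.11 ± 0.300 in AC-T libraries and 6.24 ± 0.320 in saline libraries (exact permutation p = 0.00216, the smallest that 5 and 6 libraries allow). The thalamus list, too, was chosen with earlier results of these data known. With the thalamic score as a covariate 0 of the 31 genes and 1 of all genes (0.00651%) passed in edgeR, 2 of the 31 had an unadjusted p under 0.05, and the SE of Scd1 was 0.19 in place of 0.08. Since that score separates the treatments, treatment and the sampled amount of thalamus cannot be told apart here. CA1 scores did not overlap either (5.66 to 6.10 in AC-T libraries, 2.93 to 5.32 in saline libraries). Nor did neuron scores (9.49 to 9.68 and 9.19 to 9.47 in the same order). The sampled amounts of CA1 and of neurons likewise cannot be told apart from treatment.

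**Figure D5:**
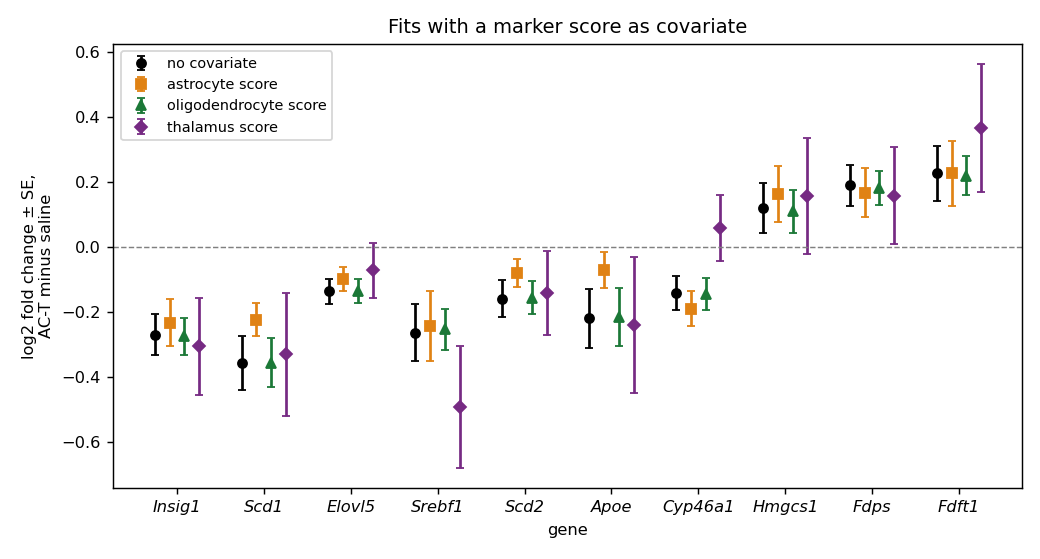
Log2 fold change ± SE, AC-T minus saline, of 10 of the 31 genes (horizontal axis) in edgeR without a covariate and with the astrocyte, oligodendrocyte or thalamus score as a covariate (5 AC-T and 6 saline libraries). With the astrocyte score Scd1 and Apoe lie nearer 0 (−0.22 and −0.07), and with the thalamus score the error bars are widest.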

How the data were processed

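Hippocampal RNA of 11 mice was sequenced from stranded mRNA libraries, per the labels' protocols. The values deposited by the authors are expected counts per gene, and per the submitters' processing notes the tools were FastQC 0.11.9 and Salmon 1.9.0 with the mouse build GRCm39. Salmon divides a read shared by similar transcripts among them. The annotation release is not given in the sources used here. The expected counts deposited by the authors were rounded to whole numbers, and 15353 genes passed filterByExpr (minimum count 10). AC-T and saline libraries were compared in edgeR 4.0.16 (R 4.3.3) with the quasi-likelihood F test, 2-sided, TMM scaling and Benjamini-Hochberg adjustment over all genes tested, threshold 0.05. The script was tested on simulated data in which the planted changes were larger than any among the 31 genes. That test does not cover changes of their size. CPM are TMM-scaled, and log2 CPM for deviations and marker scores used a prior count of 2. Mouse series were compared in a model with 4 group means. Marker scores and library measures were compared by exact permutation over all splits into 5 and 6 libraries. Transcript lengths came from GENCODE on GRCm38. All 31 genes are named. The result of a further marker gene is not reported here. Of the other pathway genes, those past the threshold and the 4 with the highest CPM are named. Members and lists were chosen with earlier results of these data known. Alternatives were other scalings, filters, tools (DESeq2 1.42.0, limma 3.58.1), covariates, thresholds, and omission of libraries or series.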

Additional observations from a re-analysis of the deposited data

Results flagged for a closer look

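Among 62 groups of values (31 genes in AC-T and in saline libraries), 3 held 1 library far from the others of its group by Dixon's 95% critical value, where chance gives about 1 in 20. Lrp1 stood at 247 CPM in AC-T 502, with the next AC-T library at 277 CPM. Soat1 stood at 35.1 CPM in AC-T 503, with the next at 30.0 CPM. Acly stood at 136 CPM in saline 302, with the next saline library at 146 CPM.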

How the results depend on the processing

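No paired analysis was possible because the treatments share no mouse number. The median of all genes moved by less than 0.1 on the log2 scale under each scaling. TMM gave 751 higher and 550 lower genes in all, upper-quartile factors 593 and 663, and scaling to library totals 487 and 548.

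Of all genes, 1301 passed. The number was 2295 at an adjusted p under 0.1, 2559 with DESeq2, 293 with limma-voom and mouse series as a random effect, 386 with the astrocyte score and 1 with the thalamus score as a covariate. It was 549, 317 and 409 without mouse series 2, 5 and 6, and 625 to 1229 without 1 library (AC-T 502 left out gave 625, AC-T 602 gave 681, saline 202 gave 815 and saline 300 gave 832). Of the 31 genes 3 passed, and the number was 5 at an adjusted p under 0.1, 7 with DESeq2, 0 with limma-voom and series as a random effect (9 at an unadjusted p under 0.05), 0 with the astrocyte score, 5 with the oligodendrocyte score and 0 with the thalamus score. It was 0, 1, 5 and 0 without mouse series 2, 3, 5 and 6, and 0 to 4 without 1 library. The 1 without series 3 was Cyp46a1, where 1206 of all genes passed. Insig1, Scd1 and Elovl5 did not pass there (edgeR adjusted p = 0.0584, 0.132 and 0.119). Without series 2 and 6, 9 and 11 had an unadjusted p under 0.05 in edgeR. The 5 without series 5 were Idi1, Msmo1, Insig1, Scd1 and Elovl5, all lower. Other scalings, low-count filters, a robust dispersion, unrounded values and limma-voom gave 2 to 4.

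Insig1, Scd1 and Elovl5 stayed below 0 under each alternative tried. Of the other genes some changed sign, none of them past the threshold, and the cause was not tested. The log2 fold changes that did so are these. Acaca (0.0051) had −0.020 with upper-quartile factors, −0.015 with library totals, −0.0043 with RLE factors, −0.0047 with DESeq2, −0.0014 with series as a random effect, −0.0036 without series 3, −0.069 without series 5, and −0.021 to 0.037 without 1 library. With the astrocyte score Cyp51 had 0.014, Idi1 0.061, Msmo1 0.021 and Insig2 −0.012. With the thalamus score Cyp46a1 had 0.058, Lrp1 0.13, Nsdhl 0.12, Hsd17b7 −0.0025, Scap −0.030 and Srebf2 −0.063. Without series 6 Cyp51 had 0.058, Dhcr7 0.0037, Idi1 0.12, Msmo1 0.073, Nsdhl 0.042 and Scap −0.00075. Without series 5 Fasn had −0.0036, Hmgcs1 −0.085, Hsd17b7 −0.058, Insig2 −0.046, Mvk −0.074 and Sqle −0.074. Without series 3 Insig2 had −0.047 and Sc5d 0.028, without series 2 Nsdhl had 0.042, and with upper-quartile factors Insig2 had −0.0011. Without 1 library Idi1 ran from −0.12 to 0.032, Insig2 from −0.029 to 0.053, Msmo1 from −0.13 to 0.0098 and Nsdhl from −0.062 to 0.0082. With 5 and 6 libraries the median half-width of the 95% interval was 0.13 for the 28 genes that did not pass. Half-widths differed between genes, and changes smaller than a gene's own half-width were not resolved.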
